A study of Danio rerio with 4 samples.

Results

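The collagen genes were examined in heat-shocked zebrafish embryos with and without an inducible human RAS oncogene. They were chosen by name: a feature of the array belonged to the set if its zebrafish symbol was a collagen chain symbol (col, a type number, a, a chain number) or if it had no zebrafish symbol and its listed human ortholog was a collagen chain. This gave 66 of the 37176 features, 17 found by zebrafish symbol and 49 by human ortholog, under 35 names. Features of COL4A3BP, which encodes a ceramide transfer protein and no collagen, were left out (2 features). Names in lower case are zebrafish genes, and names in capitals are those of the annotation or of the human ortholog, which do not always tell which of several zebrafish copies a feature measures.

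The transgenic group carried Tg(hsp70-hRASG12V), a human HRAS gene with an activating mutation behind a heat-inducible hsp70 promoter, which is not specific to a cell type. The other group was wild type. Embryos of both genotypes received a heat shock of 1 h at 37 °C when 24 hours old, stayed at 28.5 °C afterwards and were harvested whole at 30 hours post fertilisation. Total RNA was labelled with Cy3 and measured on 2 arrays per genotype, each from a pool of 50 embryos per the design text, which calls the transgenic embryos heterogeneous. It also gives triplicates, and the 4 arrays given here were all used. Array titles carry the tag ras (transgenic) or ab (wild type), and any difference in strain, clutch or handling behind the tags cannot be told apart from the transgene. Values are deposited log2 expression values per feature, and differences are transgenic minus wild type.

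Collagens are the main structural proteins of the extracellular matrix. Their chains wind around each other into a helix in the endoplasmic reticulum, after hydroxylation of proline and lysine and with the help of dedicated chaperones, and are trimmed and crosslinked outside the cell. Fibrillar collagens (types I, II, III, V, XI, XXIV and XXVII) form the fibrils of skin, tendon, cartilage and the sheath of the notochord. Type IV forms the network of basement membranes, with which types XV and XVIII associate, while FACIT collagens (such as types IX, XII, XIV and XIX) decorate fibril surfaces and transmembrane collagens such as type XVII anchor cells to the matrix. In the zebrafish embryo the notochord, the epidermis and the fin folds are prominent sites of collagen synthesis.

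Correlating all features of one array with those of another, which are not independent replicates, gave a Pearson's r of 0.996 for the transgenic pair, 0.988 for the wild-type pair and 0.966 to 0.973 for pairs of unlike genotype. Array medians were 9.61 to 9.62 (log2) in the transgenic group and 9.50 to 9.55 in the wild-type group. The lowest 25th percentile of an array, 7.05, is used below as a mark of dim signal, because the files carry no detection call. Whole-embryo RNA cannot tell fewer cells of a type from less RNA per cell. Markers of the embryo's main collagen-bearing tissues gave signal on every array, among them shha of notochord and floor plate (12.49 and 12.83 in transgenic arrays, 12.75 and 12.79 in wild-type arrays) and tp63 of the basal epidermis (13.31 and 13.40 in transgenic arrays, 13.53 and 13.69 in wild-type arrays).

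Some features of the fibrillar collagens of types XI, XXVII and II were higher in the transgenic embryos. The brightest features of types XI and II did not pass. Of the 6 features of the epidermal anchoring collagen COL17A1, 2 were lower, both with a transgenic mean below the dim mark. Of the 66 collagen features, 11 rose and 2 fell at an adjusted p of 0.05 (limma, Benjamini-Hochberg over all features), and 53 did not pass. These were 16.7% and 3.03% of the set, against 10.3% of all features higher and 7.28% lower. In either direction 19.7% of collagen features passed, near the 17.6% of all features. The median log2 fold change was 0.14 over the collagen features and 0.01 over all features. The transgenic arrays lay above both wild-type arrays for 31 collagen features and below them for 18, while 34.4% of all features were so separated upward and 33.1% downward (67.6% in either direction).

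The calls depended on the arrays. Without transgenic replicate 1, or without transgenic replicate 2, 0 features of the whole table passed in limma. The median collagen log2 fold change was 0.22 without transgenic replicate 1 (0.0012 over all features) and 0.10 without transgenic replicate 2 (0.013). It was 0.15 without wild-type replicate 1 (-0.00093 over all features) and 0.17 without wild-type replicate 2 (0.017). In the authors' deposited table, q-values below 0.05 were listed for 31 collagen features upward and 20 downward, together 77.3% of the set, against 67.7% of all features. When every name was represented by its brightest feature, 5 of 35 were higher and 0 lower. Over all named genes, with 1 feature each, 10.4% were higher and 7.51% lower.

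**Figure D1:**
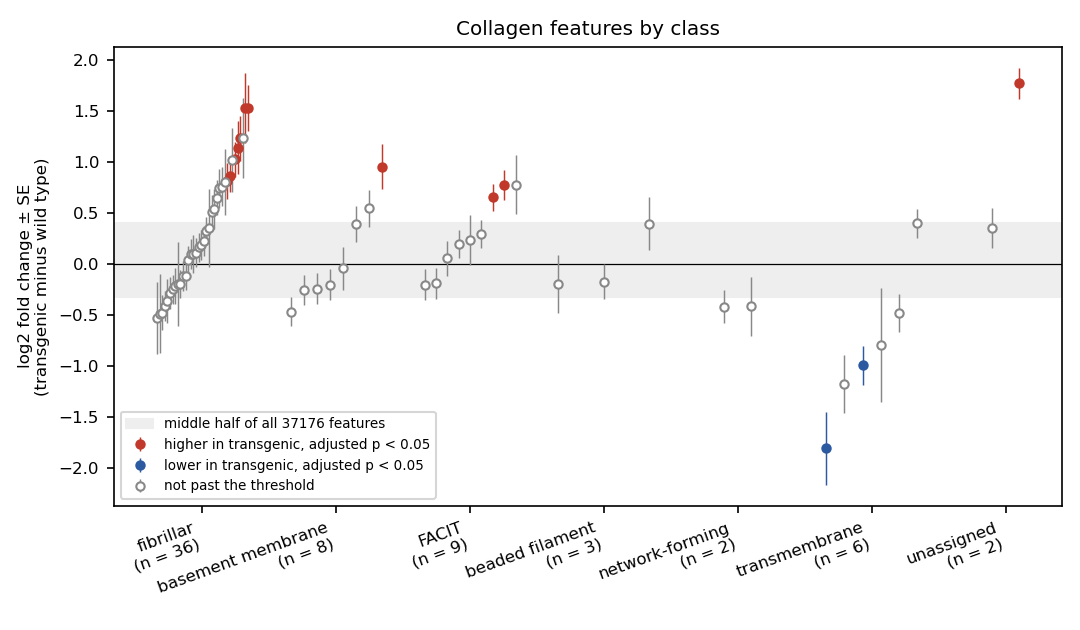
Log2 fold change (transgenic minus wild type) of each of the 66 collagen features, with its limma standard error, by class of collagen. Filled points passed an adjusted p of 0.05, and the grey band spans the lower to the upper quartile of all 37176 features; the filled red points reach 1.77 and both filled blue points are transmembrane COL17A1 features.

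Fibrillar collagens held 36 features, of which 7 rose (19.4%), 0 fell and 29 did not pass, with a median log2 fold change of 0.21. Over all features 10.3% were higher and 7.28% lower. Among the fibrillar features that rose were those of col11a2, which encodes a chain of type XI collagen, a component of cartilage fibrils. The brighter of its 2 features (OTTDART00000011499) stood at 11.48 and 11.54 in the transgenic arrays, against 9.70 and 10.27 in the wild-type arrays. The groups did not overlap, and the wild-type arrays were 0.57 apart. The log2 fold change was 1.53 ± 0.23 (SE, 2.89-fold, limma adjusted p = 0.0203). The second col11a2 feature (OTTDART00000002430) had 10.22 and 10.38 in the transgenic arrays and 9.14 and 9.41 in the wild-type arrays. It rose by 1.03 ± 0.17 (2.04-fold, limma adjusted p = 0.0243). Both annotated col11a2 features therefore passed upward, whereas a brighter feature known only by the human ortholog COL11A2 (TC250282) did not: it had 12.63 and 12.78 in the transgenic arrays and 12.85 and 12.80 in the wild-type arrays (-0.12 ± 0.14, limma adjusted p = 0.591).

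Features with the human ortholog COL11A1, the other main type XI chain, pointed the same way and differed in size. One (TC251225) rose, with 11.94 and 12.04 in the transgenic arrays against 11.01 and 11.34 in the wild-type arrays (0.81 ± 0.17, 1.75-fold, limma adjusted p = 0.0402). The dimmest of the 4 features (ENSDART00000097946) had 9.05 and 9.38 in the transgenic arrays and 7.42 and 8.53 in the wild-type arrays. Its log2 fold change was larger, 1.24 ± 0.39, but the wild-type arrays were 1.10 apart and it did not pass (limma adjusted p = 0.0908). The brightest (ZV700S00005083) had 13.61 and 13.63 in the transgenic arrays against 13.62 and 13.43 in the wild-type arrays, so that the groups overlapped.

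Type XXVII collagen, a fibrillar collagen of cartilage that in zebrafish is also made in the notochord, rose in 3 of its 4 features. The feature of col27a1b (NM_001080575) had 7.68 and 7.91 in the transgenic arrays and 6.94 in each wild-type array. It rose by 0.86 ± 0.15 (1.82-fold, limma adjusted p = 0.0279), with the wild-type mean in the dim range. Of the features with the human ortholog COL27A1, ENSDART00000057304 had 8.93 and 9.27 in the transgenic arrays and 7.65 and 8.08 in the wild-type arrays (1.23 ± 0.22, 2.35-fold, limma adjusted p = 0.0282). The feature ENSDART00000040379 had 9.12 and 9.38 in the transgenic arrays against 7.79 and 8.44 in the wild-type arrays (1.14 ± 0.26, limma adjusted p = 0.0455). All 3 were separated upward between genotypes, as were 34.4% of all features. The remaining COL27A1 feature, dim in both groups, had 5.47 and 5.78 in the transgenic arrays and 6.19 and 5.76 in the wild-type arrays, which overlapped. The annotation does not tell whether the COL27A1 features measure col27a1b or its paralog. A further feature outside the rule (OTTDART00000023198), filed under a clone name that now belongs to col27a1b, was brighter than NM_001080575 and overlapped, with 8.12 and 8.68 in the transgenic arrays and 8.56 and 8.79 in the wild-type arrays (-0.28 ± 0.24, limma adjusted p = 0.438), so the features of col27a1b disagreed.

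Type II collagen, the chief collagen of cartilage and of the notochord sheath, had 3 features. All 3 had both transgenic arrays above both wild-type arrays, as did 34.4% of all features, and 1 of the 3 passed. This was the dimmer feature of COL2A1 (2 of 2), the annotation's name for the second zebrafish copy (ENSDART00000091307). It had 10.33 and 10.59 in the transgenic arrays and 8.46 and 9.40 in the wild-type arrays, and rose by 1.53 ± 0.34 (2.88-fold, limma adjusted p = 0.0436). The wild-type arrays were 0.94 apart. The brighter feature of the same name had 12.85 and 12.98 in the transgenic arrays and 12.16 and 12.59 in the wild-type arrays (0.54 ± 0.20, limma adjusted p = 0.12). The feature of col2a1a had 13.18 and 13.49 in the transgenic arrays against 12.60 and 12.77 in the wild-type arrays (0.65 ± 0.17, limma adjusted p = 0.0644).

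**Figure D2:**
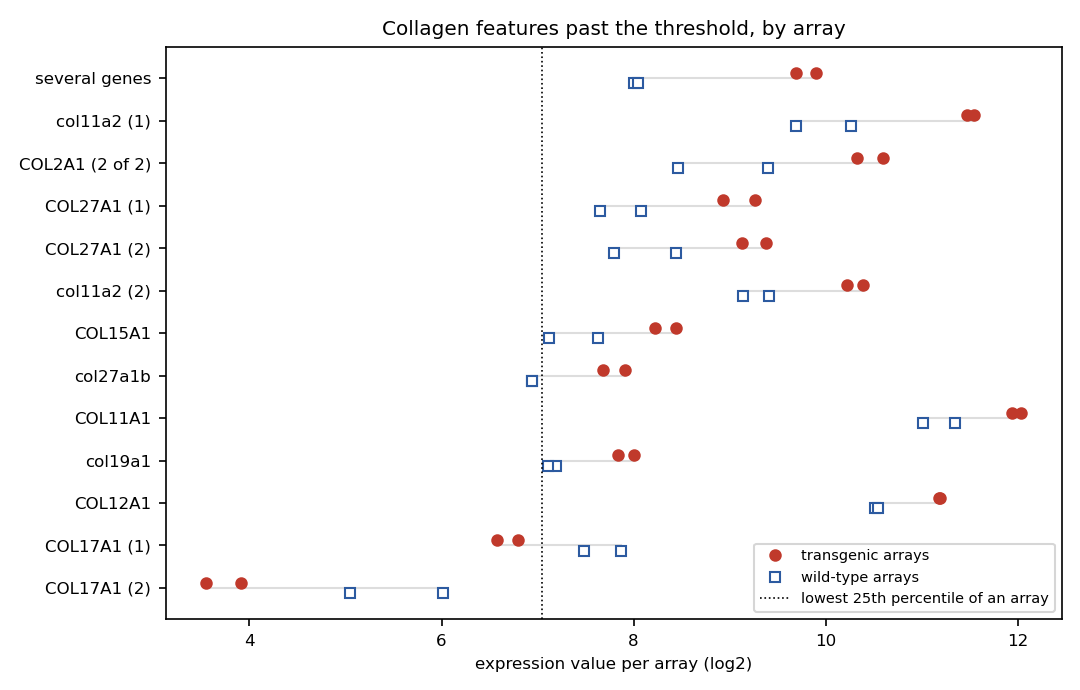
Log2 expression value on each array for the 13 collagen features past an adjusted p of 0.05, ordered by fold change; red circles are the transgenic arrays, open blue squares the wild-type arrays, and numbers in brackets count features of 1 name. The dotted line marks 7.05, the lowest 25th percentile of an array. In every row the genotypes are separated, which the choice by a small p nearly implies. The lowest row, a COL17A1 feature, lies wholly left of the line.

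Type I collagen, the most abundant collagen of skin and bone, had 5 features, and 0 of them passed in limma. At an unadjusted p of 0.05, 3 were higher and 0 lower, against 7469 higher and 6257 lower of all 37176 features. The feature of col1a1a, an alpha 1 chain gene, was the brightest of the set, with 15.81 and 15.77 in the transgenic arrays and 15.73 and 15.62 in the wild-type arrays (0.11 ± 0.14, limma adjusted p = 0.593). These values lie close to the highest values of the arrays, 15.98 to 16.04. The second type I alpha 1 gene, col1a1b, had 14.05 and 14.12 in the transgenic arrays and 13.43 and 13.72 in the wild-type arrays (0.51 ± 0.17, limma adjusted p = 0.0953). The alpha 2 chain gene col1a2 had 13.10 and 13.23 in the transgenic arrays and 12.21 and 12.61 in the wild-type arrays (0.76 ± 0.19, limma adjusted p = 0.0564). Both genes had separated groups and stayed outside the threshold, as did a further COL1A1 feature, TC247627 (0.74 ± 0.19, limma adjusted p = 0.0595). That feature passed without features below the 25th percentile (limma adjusted p = 0.0342) or the median (0.0208) and with a trended prior (0.0123). It also passed with the replicate number as a block (0.0459), after adding 50 before log2 (0.0487) and by the q-value of the authors' deposited table. It did not pass under quantile normalization, with median-centred arrays or with a robust prior. A separate feature with the human ortholog COL1A2 had the opposite sign (-0.28 ± 0.15, limma adjusted p = 0.246).

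Type V collagen, which initiates type I fibrils, and type III collagen gave 0 calls in limma. At an unadjusted p of 0.05, 1 type V feature was higher and 1 lower, and 1 type III feature was lower. Over all 37176 features, 7469 were higher and 6257 lower at that level. A COL5A2 feature outside the rule, filed under the locus LOC557081, fell (-1.39 ± 0.22, limma adjusted p = 0.0229). The 10 type V features had log2 fold changes from -0.49 to 1.02, 5 above and 5 below 0. The largest was a COL5A1 feature with 10.09 and 10.85 in the transgenic arrays and 9.23 and 9.67 in the wild-type arrays (1.02 ± 0.31, limma adjusted p = 0.0854). The brightest type V feature, with the same ortholog name, had 14.09 and 14.23 in the transgenic arrays against 14.25 and 14.29 in the wild-type arrays (-0.11 ± 0.14, limma adjusted p = 0.602). A further 5 features named for COL5A1 and COL11A1 together had log2 fold changes from -0.25 to 0.32. Both COL3A1 features had negative log2 fold changes (-0.41 ± 0.15 and -0.53 ± 0.35), and the files give no zebrafish symbol for them. A second bright type V feature, with the ortholog COL5A2, had 13.86 and 13.88 in the transgenic arrays and 14.11 and 14.02 in the wild-type arrays (-0.19 ± 0.14, limma adjusted p = 0.361).

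Basement membrane collagens held 8 features, of which 1 rose (12.5%) and 0 fell, against 10.3% of all features higher and 7.28% lower. Their median log2 fold change was -0.12. The rise was in a COL15A1 feature (NM_001080091), a collagen that links basement membranes to the surrounding matrix, with 8.22 and 8.44 in the transgenic arrays and 7.12 and 7.63 in the wild-type arrays (0.95 ± 0.22, 1.94-fold, limma adjusted p = 0.0482). This call ended under quantile normalization (adjusted p = 0.0626) and with median-centred arrays (adjusted p = 0.051). A brighter COL15A1 feature had 12.54 and 12.56 in the transgenic arrays and 12.90 and 12.71 in the wild-type arrays (-0.25 ± 0.15, limma adjusted p = 0.276), so the features of this name differed in sign. Of 5 type IV features 0 passed in limma. At an unadjusted p of 0.05, 1 was higher and 1 lower, against 7469 and 6257 of all 37176 features. Among the type IV features col4a5, a network chain gene, had 12.55 and 12.51 in the transgenic arrays against 13.06 and 12.93 in the wild-type arrays (-0.46 ± 0.14, limma adjusted p = 0.0846). It passed downward without features below the median (limma adjusted p = 0.0335), with a trended prior (0.0202) and after adding 50 before log2 (0.0485). It also passed by the authors' deposited q-value, but not under quantile normalization, with median-centred arrays or with a robust prior. The brightest type IV feature, with the ortholog COL4A5, had 13.97 and 13.98 in the transgenic arrays and 14.29 and 14.07 in the wild-type arrays (-0.20 ± 0.15). COL18A1, the precursor of endostatin, overlapped between genotypes, with 13.65 and 14.15 in the transgenic arrays and 13.90 and 13.98 in the wild-type arrays.

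FACIT collagens held 9 features, of which 2 rose (22.2%) and 0 fell, against 10.3% of all features higher and 7.28% lower. Their median log2 fold change was 0.23. The gene col19a1, known in zebrafish as stumpy for a role in motor axon growth, had 7.84 and 8.01 in the transgenic arrays against 7.19 and 7.11 in the wild-type arrays (0.77 ± 0.15, 1.71-fold, limma adjusted p = 0.032). A COL12A1 feature (TC259348), a collagen of fascia and tendon surfaces, had 11.19 and 11.18 in the transgenic arrays and 10.52 and 10.55 in the wild-type arrays (0.65 ± 0.14, 1.57-fold, limma adjusted p = 0.0376). The replicates of this feature were nearly equal and the groups well apart, but the call ended with median-centred arrays (0.56, adjusted p = 0.0525). The brighter COL12A1 feature had 12.84 and 12.82 in the transgenic arrays and 12.64 and 12.63 in the wild-type arrays (0.20 ± 0.14, limma adjusted p = 0.342). The feature of COL12A1 (2 of 2) had 12.27 and 12.62 in the transgenic arrays against 11.94 and 12.47 in the wild-type arrays, which overlapped. The 3 features of type IX collagen, a partner of type II on cartilage fibrils, gave 0 calls in limma. At an unadjusted p of 0.05, 0 of the 3 differed, against 13726 of all 37176 features. Among the type IX features col9a2 had 12.60 and 12.88 in the transgenic arrays and 12.79 and 12.58 in the wild-type arrays (0.06 ± 0.17, limma adjusted p = 0.839).

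The beaded filament and network-forming classes were small and held 0 calls in limma. At an unadjusted p of 0.05, 0 of 3 beaded filament features and 1 of 2 network-forming features, COL8A1, differed. At that level 13726 of all 37176 features differed. The 3 type VI features had overlapping groups and log2 fold changes from -0.19 to 0.39. They comprised both features of col6a2 and a COL6A3 feature with 9.78 and 9.91 in the transgenic arrays and 10.17 and 9.86 in the wild-type arrays. The COL8A1 feature, a short-chain collagen of vessel and eye membranes, had 11.66 and 11.90 in the transgenic arrays against 12.26 and 12.14 in the wild-type arrays (-0.42 ± 0.16, limma adjusted p = 0.132). The COL10A1 feature, a collagen of hypertrophic cartilage and bone, was dim on every array, with 3.93 and 4.18 in the transgenic arrays and 4.09 and 4.86 in the wild-type arrays.

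The transmembrane class consisted of 6 features with the human ortholog COL17A1, a hemidesmosome collagen that ties basal keratinocytes to the basement membrane. Of these, 2 fell (33.3%) and 4 did not pass, against 7.28% of all features lower. The log2 fold changes of 5 of 6 were below 0, with a median of -0.89. ENSDART00000101004 had 3.91 and 3.55 in the transgenic arrays and 5.05 and 6.02 in the wild-type arrays. It fell by 1.80 ± 0.36 on the log2 scale (limma adjusted p = 0.0342), but all 4 values are dim, and adding 50 to the linear values before the log reduced the difference to -0.62 and ended the call (adjusted p = 0.0798). ZV700S00000025 had 6.79 and 6.58 in the transgenic arrays against 7.87 and 7.49 in the wild-type arrays. It fell by 0.99 ± 0.19 (limma adjusted p = 0.0338), with the transgenic mean below the dim mark.

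The other COL17A1 features did not pass. ZV700S00000024 had 6.55 and 5.89 in the transgenic arrays against 7.79 and 6.24 in the wild-type arrays, which overlapped (-0.79 ± 0.56, limma adjusted p = 0.352). TC239543 had 5.62 and 6.07 in the transgenic arrays and 7.34 and 6.69 in the wild-type arrays (-1.17 ± 0.28, limma adjusted p = 0.0524). The brightest, TC252664, had 9.27 on each transgenic array and 9.95 and 9.55 on the wild-type arrays (-0.48 ± 0.19, limma adjusted p = 0.137). The groups of TC239543 and TC252664 were separated downward, whereas ENSDART00000101003 was separated upward, with 7.28 and 7.18 in the transgenic arrays against 6.81 and 6.85 in the wild-type arrays (0.40 ± 0.14, limma adjusted p = 0.111). Zebrafish has a pair of COL17A1 copies, col17a1a and col17a1b, and the files do not say which feature measures which. The plot of COL17A1 by array shows that the separation is widest in the dimmest feature.

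**Figure D3:**
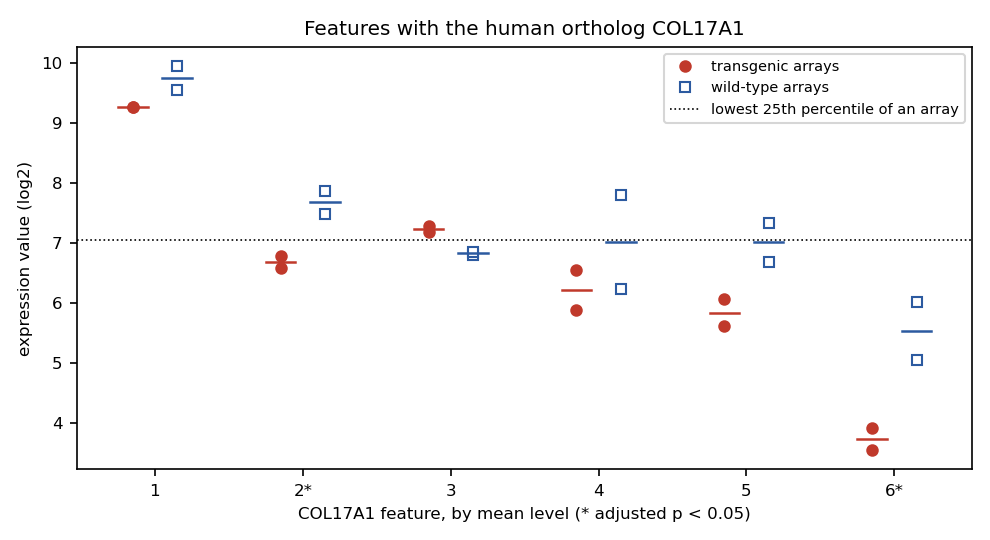
Log2 expression value on each array for the 6 features with the human ortholog COL17A1, ordered by mean level; red circles are transgenic arrays, open blue squares wild-type arrays, short bars the means of 2 arrays, and asterisks mark an adjusted p below 0.05. In 5 of 6 features the transgenic mean is the lower one, and 5 of 6 have a group mean below the dotted line at 7.05.

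The largest rise in the set could not be assigned to a collagen. ZV700S00003850 had 9.69 and 9.90 in the transgenic arrays against 7.9997 and 8.05 in the wild-type arrays (1.77 ± 0.15, 3.41-fold, limma adjusted p = 0.00934), but its ortholog field lists 21 names, of which COL5A3, COL4A5 and COL4A4 are collagens. A second such feature lists 17 names and did not pass (0.36 ± 0.20, limma adjusted p = 0.255). Without these 2 features the set had 10 higher and 2 lower, while 10.3% of all features were higher and 7.28% lower.

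Features of 1 name often disagreed. Of 15 names with more than 1 feature, 7 had fold changes of both signs, and in 12 the brightest feature had a smaller absolute log2 fold change than the dimmest. Of the 22 collagen features below the median level of all features (9.56), 6 rose and 2 fell, and of the 44 at or above it 5 rose and 0 fell. Over the whole table, 12.7% of features below that level rose and 8.94% fell, and 7.90% of those at or above it rose and 5.63% fell. Whether brightness itself shaped the size of the collagen differences was not tested.

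**Figure D4:**
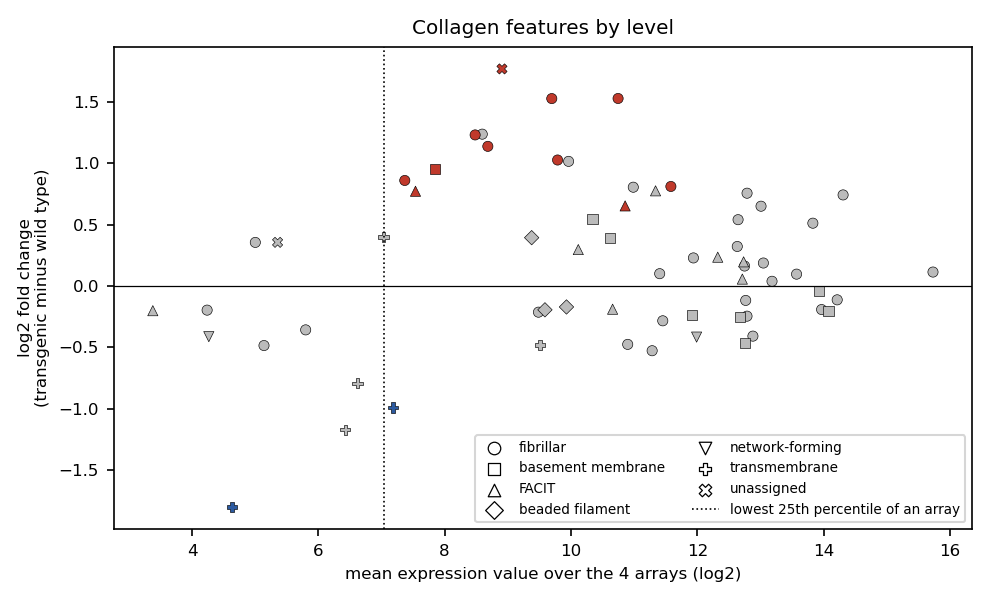
Log2 fold change (transgenic minus wild type) against the mean log2 expression value over the 4 arrays for the 66 collagen features; the marker gives the class, red and blue fill mark features higher and lower at an adjusted p of 0.05, and grey features did not pass. The red points lie between levels of 7.37 and 11.58, and none of the features brighter than that is filled.

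The machinery that makes, exports, crosslinks and breaks down collagen was examined with a list of 100 gene symbols by role, of which 40 were measured, each by its brightest feature. Of these 40 genes, 8 fell, 1 rose and 31 did not pass, with a median log2 fold change of -0.19. The fallen share was 20% and the risen share 2.50%, against 7.51% of all named genes lower, 10.4% higher and 17.9% in either direction (1 feature per gene). Among the fallen genes were enzymes and chaperones of procollagen folding, a crosslinking enzyme and small proteoglycans of the fibril surface. Leaving out either transgenic array ended every call of the list, as it did for the whole table. The median log2 fold change was -0.11 without transgenic replicate 1 (0.0012 over all features) and -0.17 without transgenic replicate 2 (0.013). It was -0.17 without wild-type replicate 1 (-0.00093 over all features) and -0.12 without wild-type replicate 2 (0.017).

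In the endoplasmic reticulum, p4ha1a, which encodes the catalytic subunit of a prolyl 4-hydroxylase, had 9.84 and 9.93 in the transgenic arrays against 10.51 and 10.84 in the wild-type arrays (-0.79 ± 0.17, limma adjusted p = 0.0425). Its paralog p4ha1b, which was brighter, did not pass (-0.23 ± 0.16, limma adjusted p = 0.338), and neither did p3h4 (0.48 ± 0.14) or crtap (-0.26 ± 0.16), both listed under prolyl hydroxylation. The collagen chaperone gene serpinh1b, also known as HSP47, had 11.80 and 12.01 in the transgenic arrays and 12.85 and 13.13 in the wild-type arrays, and both its features passed downward (-1.09 and -1.02). The disulfide isomerase gene pdia4 had 12.81 and 12.93 in the transgenic arrays and 13.62 and 13.55 in the wild-type arrays (-0.71 ± 0.14, limma adjusted p = 0.0355). Genotypes were separated for all of the fallen genes, which a small p on 2 against 2 arrays nearly implies. Of the 40 measured genes of the list, 21 were separated downward and 9 upward, against 33.1% and 34.4% of all features. The lysyl hydroxylase genes plod2 (-0.29 ± 0.17) and plod3 (-0.28 ± 0.15) and the galactosyltransferase gene colgalt1b (0.23 ± 0.33) did not pass, nor did the prolyl isomerase genes fkbp10b (-0.34 ± 0.15) and fkbp14 (-0.16 ± 0.14).

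Genes of procollagen export gave 0 calls in limma among 9 measured, also at an unadjusted p of 0.05 (a feature named only by the ortholog CTAGE5 is given below), with a median log2 fold change of -0.04. The largest difference was in creb3l2, the transcription factor gene mutated in the zebrafish feelgood craniofacial mutant, at 0.43 ± 0.19 (limma adjusted p = 0.173). The coat genes sec13 (-0.22 ± 0.15), sec31a (-0.23 ± 0.23) and sec23a (0.23 ± 0.20) were also outside the threshold. Their differences were smaller than those of the fallen folding genes. At an unadjusted p of 0.05, 13726 of all 37176 features differed.

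Outside the cell, pcolcea, which enhances removal of the carboxy-terminal propeptide, had 11.58 and 11.62 in the transgenic arrays and 12.61 and 12.59 in the wild-type arrays. It fell by 0.999 ± 0.14 (limma adjusted p = 0.017), with replicates far closer to each other than the genotypes. The propeptidase genes bmp1a (-0.31 ± 0.36) and bmp1b (-0.13 ± 0.15) and the enhancer gene pcolce2b (-0.01 ± 0.15) did not pass. Of the crosslinking enzymes, loxl1 had 9.92 and 10.17 in the transgenic arrays against 11.02 and 11.26 in the wild-type arrays (-1.10 ± 0.17, limma adjusted p = 0.0227), while loxl2b (-0.29 ± 0.16) and the dim loxl4 (0.29 ± 0.38) did not pass.

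The fibril surface proteoglycan gene fmoda, a fibromodulin gene, had 13.65 and 13.41 in the transgenic arrays and 14.34 and 14.31 in the wild-type arrays (-0.80 ± 0.16, limma adjusted p = 0.0337). The lumican gene lum had 11.14 and 11.29 in the transgenic arrays and 11.98 and 11.84 in the wild-type arrays (-0.70 ± 0.15, limma adjusted p = 0.04). The call of lum ended without wild-type replicate 1 (adjusted p = 0.0518). Elastic fibre gene emilin1b was separated upward without passing (1.21 ± 0.31, limma adjusted p = 0.0584), and bgnb, a biglycan gene, likewise (0.59 ± 0.16, limma adjusted p = 0.0622).

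Among collagen-cleaving proteases, the gelatinase gene mmp9 had 13.84 and 14.09 in the transgenic arrays against 9.89 and 9.78 in the wild-type arrays, the 1 rise in the list (4.13 ± 0.16, limma adjusted p = 0.00677). The gelatinase gene mmp2 (-0.43 ± 0.14, limma adjusted p = 0.0945) and the membrane protease gene mmp14a (0.44 ± 0.15, limma adjusted p = 0.108) did not pass. Of the collagen receptors, itga11a, a collagen-binding integrin subunit gene, had 8.20 and 8.05 in the transgenic arrays and 8.86 and 9.33 in the wild-type arrays (-0.97 ± 0.21, limma adjusted p = 0.0402). The beta 1 subunit genes itgb1b (0.63 ± 0.18, limma adjusted p = 0.0726) and itgb1a (0.35 ± 0.22, limma adjusted p = 0.308) did not pass.

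**Figure D5:**
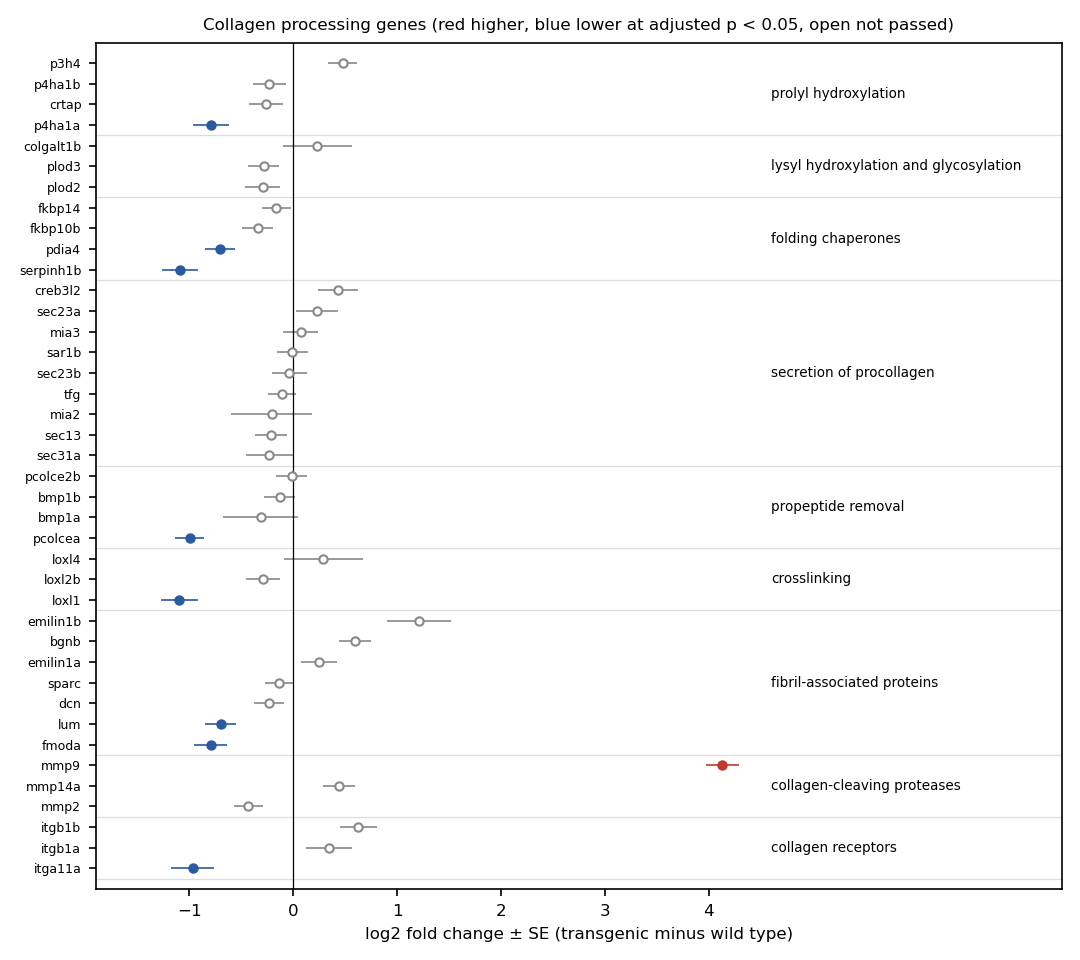
Log2 fold change (transgenic minus wild type) with its limma standard error for the 40 measured collagen processing genes, grouped by role. The 8 filled blue points lie between -0.70 and -1.10, the filled red point is mmp9 at 4.13, and open points did not pass an adjusted p of 0.05.

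Some listed genes had no feature under a zebrafish symbol but had one under a human ortholog name, a lookup added after the values were seen. It brought the number measured to 64, with 9 lower (14.1%) and 5 higher (7.81%). An ortholog name does not tell which zebrafish copy is measured. Some added features, such as that of SERPINH1, may therefore measure a gene already counted. Over all named genes 7.51% were lower and 10.4% higher. The list was thus less one-sided than the 40 genes, of which 20% were lower and 2.50% higher. The additions held the largest differences of the list: a feature with the ortholog MMP13, an interstitial collagenase, had 13.48 on each transgenic array and 8.25 and 8.36 on the wild-type arrays (5.18 ± 0.14, 36.2-fold, limma adjusted p = 0.00677). A feature with the ortholog ITGA2, a collagen-binding integrin subunit, had 9.14 and 9.55 in the transgenic arrays against 4.73 and 5.20 in the wild-type arrays (4.38 ± 0.24, limma adjusted p = 0.008), with the wild-type mean in the dim range. Both stood far apart between genotypes. Of the export genes, a feature with the ortholog CTAGE5 rose, with 10.47 and 10.73 in the transgenic arrays against 9.58 and 9.87 in the wild-type arrays (0.88 ± 0.18, limma adjusted p = 0.038). A feature with the ortholog LOX, a crosslinking enzyme, also rose while dim on every array (0.71 ± 0.16, limma adjusted p = 0.0416). A SERPINH1 feature without a zebrafish symbol fell by 1.02 ± 0.15 (limma adjusted p = 0.0189), beside the falls of serpinh1b.

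Markers of the tissues that carry collagen, each counted by its brightest feature, were set beside these values, and their part in the collagen differences was not tested. Of 6 notochord and floor plate markers measured, 0 rose, the caveolin gene cav1 fell (-1.04 ± 0.15, limma adjusted p = 0.0199), and foxa2, a floor plate factor gene, did not pass (-0.44 ± 0.14); the log2 of their summed signal was 14.19 and 14.36 in the transgenic arrays and 14.74 and 14.71 in the wild-type arrays. This sum was lower in both transgenic arrays than in either wild-type array. It includes cav1, with 11.76 and 11.96 in the transgenic arrays against 12.95 and 12.85 in the wild-type arrays. Of the 6 markers 4 were separated downward, as were 33.1% of all features, while noto and the brightest, shha, overlapped. Of 6 cartilage and sclerotome markers, 0 rose and twist2, a mesenchymal factor gene, fell by 1.38 ± 0.16 (limma adjusted p = 0.0126). The sclerotome factor gene pax1a did not pass (-0.33 ± 0.15), nor did pax9, of which a dimmer feature fell (1 of 2 features). Separated upward without passing were sox5 (0.33 ± 0.16, limma adjusted p = 0.196) and twist1b (0.21 ± 0.15, limma adjusted p = 0.378). Of the 6 markers, 3 were separated downward and 2 upward, against 33.1% and 34.4% of all features. Their log2 sum was 13.995 and 14.07 in the transgenic arrays and 13.88 and 13.96 in the wild-type arrays. This sum rests mostly on sox5, the brightest of them (mean log2 value 13.28, against 11.08 for pax9, the next). Of 8 epidermal markers, cdh1, the E-cadherin gene, rose by 1.34 ± 0.14 (limma adjusted p = 0.0115), 0 fell by their brightest feature, and krt5, a keratin gene of the epidermis, did not pass (-0.36 ± 0.14); their log2 sum was 17.64 and 17.69 in the transgenic arrays and 17.75 and 17.80 in the wild-type arrays. Over all 15 features of these epidermal genes, 2 rose (cdh1 and a dimmer hmcn1 feature) and 2 fell (dimmer features of krt5 and cyt1). Of all features 10.3% were higher and 7.28% lower. By its brightest feature, no marker of endothelium (2 measured), skeletal muscle (4), neurons (1) or blood (1) passed in limma, while a dimmer feature of the muscle gene ttna fell (1 of 3 features). At an unadjusted p of 0.05, 3 of 6 notochord and floor plate markers were lower (cav1, foxa2 and foxa1) and 0 higher. Of the cartilage and sclerotome markers 1 was lower and 0 higher, and of the epidermal markers 1 was lower and 1 higher. Over all 37176 features, 6257 were lower and 7469 higher at that level. The endothelial gene cdh5 was also higher at that level (0.82 ± 0.25). The brightest ttna feature was lower (-0.81 ± 0.29), with 9.15 and 9.26 in the transgenic arrays and 9.62 and 10.42 in the wild-type arrays. The other endothelium, muscle, neuron and blood markers with the smallest p did not differ at that level. These were kdr of endothelium (-0.065 ± 0.28), myod1 of muscle (-0.25 ± 0.14), snap25a of neurons (-0.13 ± 0.15) and hbae3 of blood (0.060 ± 0.15). The brightest feature of the cartilage marker matn1 was dim on every array, and those of the other measured notochord, cartilage and epidermal markers had group means above the dim mark.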

How the data were processed

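Per the labels' protocols, RNA came from whole embryos by Trizol extraction, and Roche NimbleGen carried out the Cy3 labelling. The authors deposited expression values of 37176 features for 4 arrays, read here as log2 values because they end near 16, the log2 limit of a 16-bit scanner. How signals were background-corrected, normalized and summarised is not stated in the files or labels. The deposited table of the authors' comparison gives a log2 fold change, which equals the difference of group means within 2.85e-08, and a q-value, whose test is likewise not given. It also gives symbols and human orthologs; current names came from a RefSeq gene table (GRCz12tu).

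The deposited values were fitted in limma 3.58.1 (R 4.3.3) over all features, without a block, with lmFit, eBayes and Benjamini-Hochberg adjustment at 0.05, after a test on simulated data. Groups were those of the genotype labels. Nothing says that arrays of a group came from separate clutches, so p-values rest on the spread between arrays and may not cover that between clutches. The eBayes prior draws each feature's spread toward that of all features (2.92 prior against 2 residual degrees of freedom). With 2 arrays per genotype the precision is limited.

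Collagen features and lists were chosen with earlier results of these data known. The text names every collagen feature past the threshold, the 3 brightest others of each class, up to 4 processing genes per role and 2 markers per tissue by smallest p; further features were named after their values were seen. Alternatives covered normalization, dim features, the eBayes prior, a replicate block, an added 50 before log2, the threshold (0.1), the deposited q-values, single features per name and each array left out. No sequences are given, since none were in the files used.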

Additional observations from a re-analysis of the deposited data

How the results depend on the processing

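With 2 arrays per genotype, leaving out either transgenic array ended every call of the whole table, and no called value reversed under any alternative run. Leaving out either wild-type array gave more calls over the whole table than the main fit did. The ranges that follow therefore cannot be read as particular to collagens or processing genes. Leaving out each array in turn gave 0 to 21 collagen features higher and 0 to 5 lower, and 0 to 6 processing genes higher and 0 to 8 lower, against 11, 2, 1 and 8 with all arrays. Without features below the 25th percentile, 1 collagen feature was lower and 5 processing genes higher, and without features below the median these were 1 and 4. These fits tested only the features kept, among them 55 and 44 collagen features. Of all features kept, 7175 passed in the former fit and 5320 (of 18588) in the latter. With a trended prior 17 collagen features were higher and 5 lower, and 3 processing genes higher. Of all 37176 features 9291 then passed, against 6538 in the main fit. At an adjusted p of 0.1 the collagen counts were 18 and 4, and 5 processing genes were higher, while 11247 of all features passed. The authors' deposited q-values gave 31 and 20 for collagens and 11 and 20 for processing genes, with 25150 of all features below 0.05. With 1 feature per name 5 of 35 collagens were higher and 0 lower, against 10.4% and 7.51% of all named genes. With zebrafish symbols only, 3 of 17 features were higher and 0 lower, against 10.3% and 7.28% of all features. After adding 50 before log2, 2 processing genes were higher, and 7215 of all features passed. Among alternatives chosen after seeing the data, collagen-named features outside the rule raised the lower count to 10 of 97. Ortholog names raised the processing genes higher to 5 of 64. Centring arrays on their medians moved the median log2 fold change of all features to -0.09 and of the collagens to 0.05, against 0.01 and 0.14 as deposited; the cause of these changes was not tested.

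With the replicate number as a block, 15 collagen features were higher and 2 lower, and 2 processing genes were higher and 7 lower. Of all features 7291 then passed. In this fit lum no longer passed (limma adjusted p = 0.0515), and COL1A1 TC247627 (limma adjusted p = 0.0459), emilin1b (0.0232) and cdh5 (0.0483) did. The numbers are not stated to pair arrays, and the deviations of arrays with the same number correlated at 0.206 across features.

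The call of col19a1 ended with a trended prior, and that of COL15A1 also with a robust prior. Values that changed sign were all outside the threshold in the main fit, though some, such as colgalt1b and COL12A1 (2 of 2), passed by the authors' deposited q-values. Median centring gave -0.036 for col9a2 and -0.033 for hbae3. Leaving out each array in turn gave ranges that cross 0, from -0.084 to 0.20 for col9a2, -0.032 to 0.50 for COL12A1 (2 of 2), -0.29 to 0.21 for COL18A1, -0.58 to 0.19 for the col6a2 feature ENSDART00000087597, -0.22 to 0.68 for colgalt1b, -0.00126 to 0.46 for sec23a, -0.49 to 0.026 for sec31a, -0.81 to 0.18 for bmp1a, -0.12 to 0.091 for pcolce2b, -0.16 to 0.74 for loxl4, -0.39 to 0.26 for kdr and -0.038 to 0.16 for hbae3.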

Other observations

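The rule by name left out 31 features that carry a collagen name only in the ortholog or description field, because their zebrafish symbol is another name; they were examined after their values were seen. Of these, 8 fell and 2 rose in limma, with a median log2 fold change of -0.06, against 7.28% lower and 10.3% higher over all features. One of the 2 rises is slc35c2, a solute carrier by its symbol and description, whose ortholog field reads COL20A1. The locus LOC557081, whose features mostly carry the human ortholog COL7A1, the collagen of the anchoring fibrils under the epidermis, had 10 features, of which 5 fell and 0 rose (0 also at an unadjusted p of 0.05). At that unadjusted p, 7469 of all 37176 features were higher and 6257 lower. One fall at the locus is the COL5A2 feature given above, and the 4 falls with the ortholog COL7A1 were dim in both groups. One of them (ENSDART00000076440) had 3.44 and 3.95 (log2) in the transgenic arrays against 6.07 and 6.06 in the wild-type arrays (-2.36 ± 0.21, limma adjusted p = 0.00949), all in the dim range. The brightest feature of the locus (ENSDART00000076635) did not pass (0.23, limma adjusted p = 0.474). Nor did the brighter COL7A1 features outside the locus, si:dkey-117n7.1 (0.45 ± 0.28) and si:dkey-117n7.4 (0.23 ± 0.25), whose groups overlapped.

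Type IV chains listed under protein names differed among themselves. The feature described as an alpha 3 chain (Q58FS7_DANRE) had 7.77 and 8.04 in the transgenic arrays and 9.33 and 9.55 in the wild-type arrays, and fell by 1.54 ± 0.17 (limma adjusted p = 0.0128). Its listed human ortholog is COL4A5, which differs from its description. The alpha 4 chain (Q4TZW9_DANRE) fell in 2 of 4 features, each with at least 1 group mean in the dim range. The alpha 1 chain (Q4TZW8_DANRE) had 12.35 and 12.55 in the transgenic arrays against 12.37 and 12.53 in the wild-type arrays, which overlapped. A feature of si:dkey-27a13.1, with the human ortholog COL23A1, a transmembrane collagen, rose, with 11.85 and 11.92 in the transgenic arrays and 10.95 and 11.16 in the wild-type arrays (0.83 ± 0.15, limma adjusted p = 0.0298).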
